A study of Rattus norvegicus with 55 samples.

Results

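Slc6a6, Slc6a13 and Abat are the genes described here: a taurine transporter, a transporter of GABA that also carries taurine and beta-alanine, and the enzyme that starts the breakdown of GABA. They were found as all probe sets annotated to these symbols, which gave 3 of the 4737 genes named on the array and 4 of its 8799 probe sets: M96601_at for Slc6a6, M95762_at for Slc6a13, and D87839_at and D87839_g_at for Abat. The Abat probe sets carry the same sequence name and are not independent measurements of the gene. All 4 passed the filter on low values, which left 6555 probe sets for testing.

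The series holds 55 Affymetrix arrays, each with total RNA from rat kidney in 1 colour, and the deposited values are intensities on a linear scale. Every sample is titled as kidney of the SHR (spontaneously hypertensive rat), while every description calls the rats Wistar-derived. The descriptions form 4 groups: immature (13 arrays), young (14), mature (14) and a group without a stage word (14). All 4 groups share the strain and tissue labels, and no label gives a treatment, an allele, an age, a sex or a diet, or says whether arrays came from separate animals or from pools. The spread behind each p-value is that between these arrays and may be technical only.

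Where the arrays are divided, the sides were chosen by a measured value. They were described on both sides of an intensity of 600 for X56596_at, a probe set annotated to RT1-Bb, the beta chain of an MHC class II molecule. Levels on its sides are therefore given as a description with no test. It put 12 arrays above and 43 below, with 3 arrays above in each description. The nearest arrays read 1411.5 on the upper side and 263 on the lower side, so none lay close to the threshold.

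Taurine is an amino sulfonic acid that is not built into proteins. Kidney cells take it up with sodium and chloride, recover it from the filtrate, and in the medulla hold it as an organic osmolyte that balances the salt outside the cell. GABA, the main inhibitory transmitter of the brain, is also taken up and metabolised by kidney tubules. Abat is a mitochondrial transaminase that turns GABA into succinic semialdehyde and also accepts beta-alanine, and Slc6a13, known as GAT2 in the rat, lies in the basolateral membrane of proximal tubule cells in rodents.

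The tonicity-responsive element is the binding motif of Nfat5, the factor that switches on osmolyte genes in a salty surrounding. A match to it stood in the RefSeq promoter window of Slc6a6 (GRCr8, 250 bases before to 50 after the start), and this stretch is shown because taurine is itself such an osmolyte. The run is chr4:125752332-125752361 on the plus strand, 170 to 141 bases before the start. The capitals mark the match, 11 bases long, which reads on the minus strand.
Slc6a6: gccaagctgGTATTTTTCCAcccagcagga
The motif, searched on both strands, was in 5.98% of the 33469 windows of that length in the table. GGGCGG was found 3 times in the Slc6a6 window and in 33.1% of all windows, and TATAAA was found 1 time, at 79 bases before the start, and in 14.2% of all windows. GGGCGG and TATAAA did not overlap the match shown. A match is a run of letters, and binding was not measured here.

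Some arrays stood apart before any gene was compared. By the values of 42 control probe sets they fell into 3 clusters, which are called batches although no label names a batch. In batch 1 were 6 immature and 4 mature arrays. In batch 2 were 7 immature arrays, 6 young ones and 6 without a stage word, and in batch 3 were 8 young ones, 10 mature ones and 8 without a stage word. Degraded RNA raises the 3'/5' ratio of GAPDH, and this ratio reached 7.18 (mature replicate 1) and 3.47 (mature replicate 9), while the other 53 arrays stayed at or under 2.62. The median intensity of an array lay between 136 and 183.3, and precision is limited by how many arrays there are. The 13 proximal tubule markers measured summed to 45574 to 106294 per array, while the 5 liver markers tested summed to 534.6 to 1609. Of the 8 neuron markers listed, 4 passed the filter and summed to 248.7 to 1023, and Gad1 and Gad2, the enzymes that make GABA, did not pass it.

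Over the 4 descriptions, 3 of the 4 probe sets differed by the moderated F test of limma, where 28.5% of all probe sets tested did. Slc6a13 had an F of 27.4 (adjusted p = 8e-09), Slc6a6 an F of 9.06 (adjusted p = 0.00077) and D87839_g_at of Abat an F of 6.55 (adjusted p = 0.0054). D87839_at, the other probe set of Abat, had an F of 0.49 (adjusted p = 0.76). By mean log2 level, Slc6a13 was lowest in immature kidney, Slc6a6 was lowest in young kidney, and D87839_g_at was lowest in the group without a stage word. In whole kidney, fewer cells of a type and less RNA per cell cannot be told apart.

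Slc6a13, the GABA transporter, was higher in mature kidney and in the group without a stage word than in immature or young kidney. Its lowest, median and highest intensities were 275.9, 349.7 and 535 in immature kidney, 322, 396.1 and 530.7 in young kidney, 435.5, 524.8 and 611 in mature kidney, and 511.3, 564.9 and 738.2 without a stage word. Every mature array lay above the median of immature kidney, and 7 of the 14 lay above every immature array. Mean log2 levels were 8.54 ± 0.26 in immature (n = 13), 8.70 ± 0.19 in young, 9.07 ± 0.17 in mature and 9.22 ± 0.16 without a stage word (SD, n = 14 each).

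In mature against immature kidney Slc6a13 rose by 0.53 ± 0.09 on the log2 scale (SE), a 1.44-fold level (limma, adjusted p = 5.1e-06). It was the member called in this comparison, 1 of 4 probe sets, where 24.4% of all probe sets were called. Against young kidney the mature group was higher by 0.37 ± 0.08, or 1.30-fold (adjusted p = 0.0082). With Slc6a6, 2 of the 4 member probe sets were called there, against 1.8% of all probe sets. The young minus immature difference of 0.16 ± 0.09 had an adjusted p of 0.2.

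The arrays without a stage word had the highest mean level of Slc6a13. They exceeded immature kidney by 0.68 ± 0.09 on the log2 scale, 1.60-fold, with an adjusted p of 2.4e-08 in limma. Slc6a13 and D87839_g_at of Abat were the 2 member probe sets called in that comparison, against 27% of all. Against young kidney they exceeded by 0.52 ± 0.08, 1.43-fold, with an adjusted p of 0.00024, where 0.229% of all probe sets were called and Slc6a13, the 1 member called, ranked 2 of 6555 by p. All 14 arrays without a stage word lay above the median of young kidney, and 10 lay above every young array. Between mature kidney and the group without a stage word the difference was -0.15 ± 0.08 (adjusted p = 0.44). In the order immature, young, mature, no stage word, the step between young and mature was therefore the one between neighbours that passed the test.

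On both sides of the X56596_at split Slc6a13 was higher in mature kidney and without a stage word than in immature kidney. On the arrays above 600, Slc6a13 read 339.8 to 377 in immature, 322 to 391.4 in young, 555.8 to 611 in mature kidney and 604.4 to 674.3 without a stage word, and neither later group overlapped immature or young kidney. How many of all probe sets did the same was not counted. On the arrays below 600 it read 275.9 to 535 in immature, 357.1 to 530.7 in young, 435.5 to 597.8 in mature and 511.3 to 738.2 without a stage word, and neighbouring groups overlapped. Fitted on the arrays above 600 alone, mature against immature gave 0.70 ± 0.14 on the log2 scale (adjusted p = 0.014). Fitted on those below, it gave 0.48 ± 0.10 (adjusted p = 0.00041). The 2 sides were not tested against each other. Young kidney was not above immature kidney on the upper side, with medians of 329.9 and 349.7. Mature against young gave 0.74 ± 0.14 above 600 (adjusted p = 0.014) and 0.27 ± 0.10 below 600 (adjusted p = 0.24). Above 600, immature and mature arrays were all of batch 1, and young arrays and those without a stage word all of batch 2. On that side, comparisons across these batches cannot tell stage from batch. In no description did Slc6a13 itself separate the sides, since the arrays above and below 600 overlapped in all 4.

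Batch moved some of these values. With batch as a block, mature against immature kept 0.55 ± 0.09 (adjusted p = 8.6e-06) and the group without a stage word kept 0.79 ± 0.09 over immature (adjusted p = 1e-09). With that block the young minus immature difference was 0.27 ± 0.09 and passed (adjusted p = 0.042), while mature minus young was 0.28 ± 0.08 and did not (adjusted p = 0.063). Within batch 2 the arrays without a stage word read 532.2 to 738.2, against 322 to 400.7 in young and 275.9 to 354.8 in immature kidney, so the group without a stage word overlapped neither. There it exceeded young kidney by 0.76 ± 0.09 (adjusted p = 9.6e-06). Within batch 3 the same difference was 0.34 ± 0.10 (adjusted p = 0.94), and the groups overlapped. For this comparison 1778 of all 6555 probe sets were called within batch 2 and 0 within batch 3. Within batch 1, mature kidney read 555.8 to 611 against 339.8 to 535 in immature kidney, without overlap, and the difference of 0.53 ± 0.17 had an adjusted p of 0.19. The share of all probe sets without overlap within a batch was not counted. Mature minus young was 0.20 ± 0.10 within batch 3 (adjusted p = 0.68). Leaving out the mature arrays of high GAPDH ratio gave 0.52 ± 0.09 over immature (adjusted p = 8e-06) and 0.36 ± 0.09 over young kidney (adjusted p = 0.014).

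**Figure D1:**
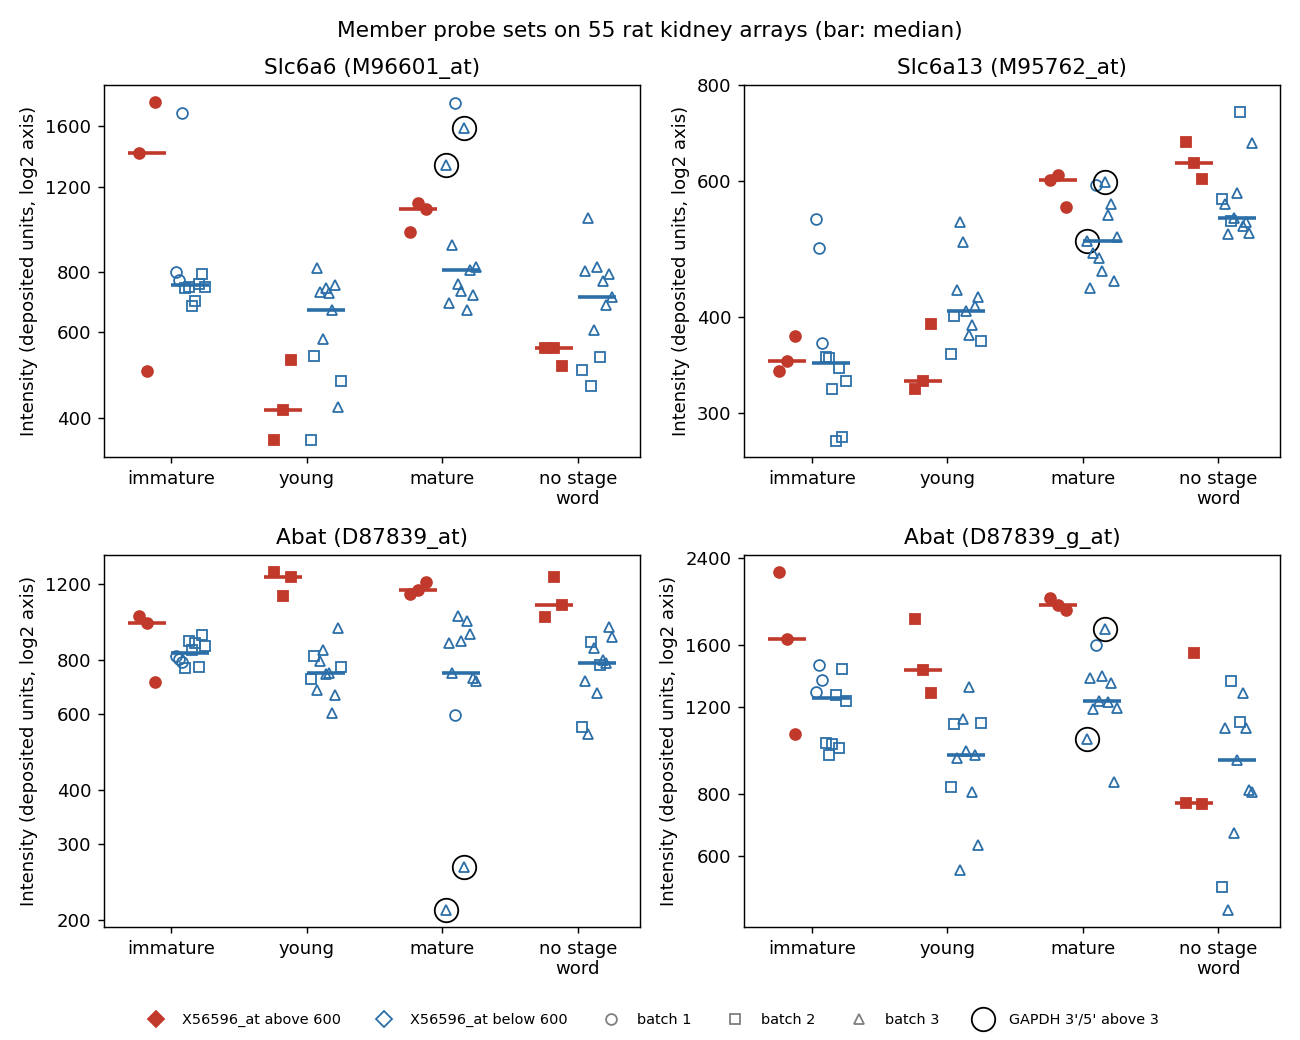
Intensity of the 4 probe sets on each of the 55 arrays (log2 axis, deposited units) by stage description, filled red where X56596_at read above 600 and open blue where it read below, with a bar at the median of each side. Marker shapes give the batch and rings the 2 arrays of high GAPDH ratio; all mature arrays of Slc6a13 lie above its immature median, and D87839_at separates the colours in the last 3 groups.

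Slc6a6, the taurine transporter, was lower in young kidney than in immature or mature kidney. Its lowest, median and highest intensities were 498.9, 755.9 and 1796 in immature kidney, 359.6, 558.9 and 814.4 in young, 666.4, 863.4 and 1785 in mature, and 464.7, 646.7 and 1034 without a stage word. Young arrays overlapped every other group, but 5 of the 14 lay below every immature array. Of the mature arrays, 8 lay above every young array and all 14 lay above the young median. Mean log2 levels were 9.79 ± 0.54 in immature (n = 13), 9.17 ± 0.40 in young, 9.91 ± 0.45 in mature and 9.38 ± 0.33 without a stage word (SD, n = 14 each), a wider spread than for Slc6a13.

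In young against immature kidney Slc6a6 fell by 0.62 ± 0.17 on the log2 scale, to 0.65 of the immature level (limma, adjusted p = 0.0061). It was the 1 member called, where 18.7% of all probe sets were called. In mature against young kidney it rose by 0.75 ± 0.16, or 1.68-fold (adjusted p = 0.0055). Mature against immature kidney gave 0.13 ± 0.17 (adjusted p = 0.6). The group without a stage word lay between young and immature kidney, at -0.41 ± 0.17 from immature (adjusted p = 0.061), 0.22 ± 0.16 from young (adjusted p = 0.85), and with mature kidney 0.53 ± 0.16 above it (adjusted p = 0.13). In the order young, no stage word, immature, mature, no neighbours differed by the test.

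A few arrays carried much of the upper range. Immature replicates 1, 3 and 6 read 1409, 1796 and 1705, while the other 10 immature arrays read at most 801.6. Mature replicates 1, 5 and 9 read 1330, 1785 and 1586, while the other 11 read at most 1110. Mature replicates 1 and 9 are the arrays of high GAPDH ratio, and replicate 5 had an actin 3'/5' ratio of 2.75. Leaving out mature replicates 1 and 9 together gave a mature over young rise of 0.65 ± 0.16 (adjusted p = 0.033), and leaving out replicate 5 alone gave 0.68 (adjusted p = 0.016). Young against immature kidney was -0.56, -0.54 and -0.54 on the log2 scale without immature replicate 1, 3 or 6, and passed each time (adjusted p of 0.015 to 0.016).

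Batch ran together with Slc6a6 as well. In batch 2, all 6 young arrays (359.6 to 535.4) and all 6 without a stage word (464.7 to 558.4) lay below all 7 immature arrays (682 to 790.9). There young kidney was lower than immature by a log2 change of -0.72 ± 0.09 (adjusted p = 1.5e-05) and the group without a stage word by -0.49 ± 0.09 (adjusted p = 0.00031). Calls were common in this batch, with 1921 of all 6555 probe sets in the first comparison and 2848 in the second. The share of all probe sets without overlap there was not counted. In batch 3, young arrays read 420.4 to 814.4 with a median of 725.8, against a median of 446.6 in batch 2. Mature minus young within batch 3 was 0.37 ± 0.16 (adjusted p = 0.62). With batch as a block it was 0.48 ± 0.15 (adjusted p = 0.082), so the rise between young and mature kidney did not pass once batch was in the model. Young against immature passed with that block, at -0.56 ± 0.16 (adjusted p = 0.016).

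Between the sides of the X56596_at split Slc6a6 had no common direction. Its median was 1409 above 600 and 751.1 below in immature kidney, 415.9 above and 666.1 below in young, 1077 above and 807.8 below in mature, and 557.2 above and 711.1 below without a stage word. Over all arrays the sides overlapped in every description. Within batch 1 the median was 1409 above and 801.6 below in immature kidney. In mature kidney of batch 1 it was 1077 above, and the 1 array below read 1785. Within batch 2 it was 415.9 above and 477.3 below in young kidney, and 557.2 above and 501.9 below without a stage word. The order in mature kidney and without a stage word was thus opposite to that over all arrays. Fitted on the arrays above 600, young against immature kidney was -1.31 ± 0.36 (adjusted p = 0.032), and on those below it was -0.43 ± 0.18 (adjusted p = 0.081). Mature against young was 1.26 ± 0.36 above 600 (adjusted p = 0.055) and 0.61 ± 0.17 below 600 (adjusted p = 0.087). The upper side rests on 3 arrays a group. There the young arrays were all of batch 2 and the immature and mature ones all of batch 1. These comparisons with young kidney above 600 therefore cannot tell stage from batch.

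**Figure D2:**
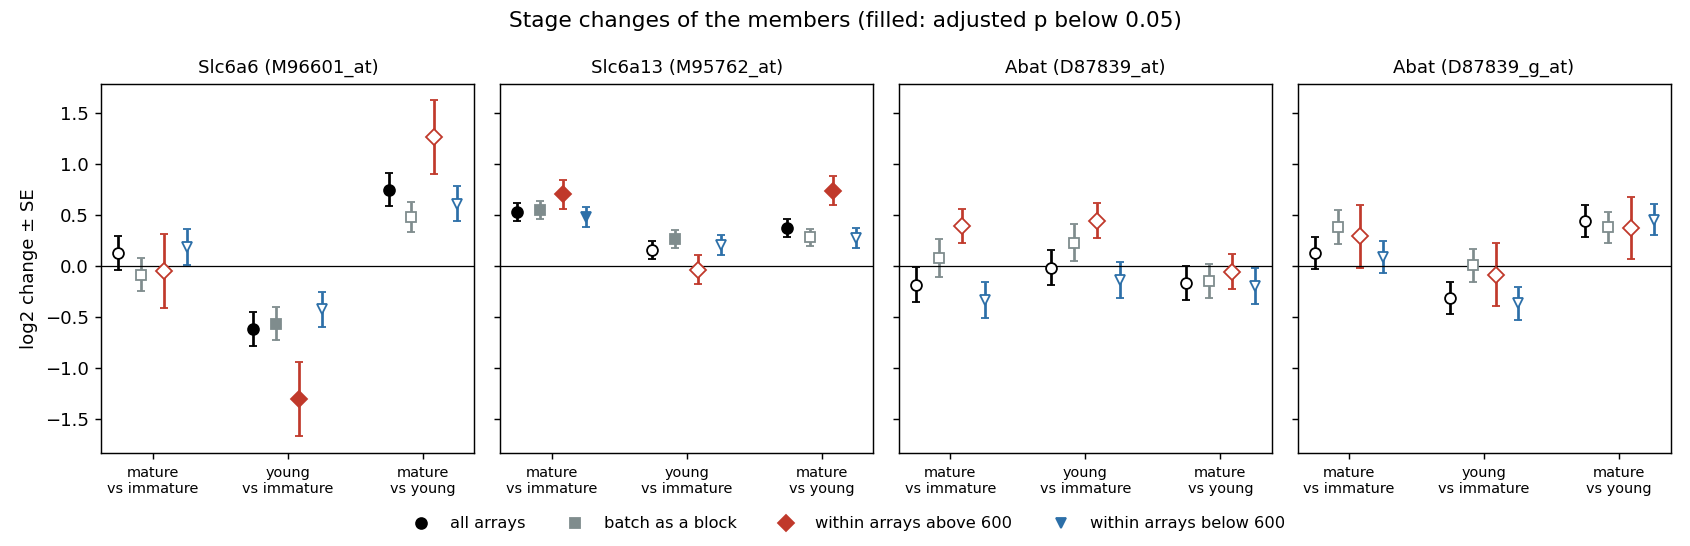
Log2 change ± SE of each member probe set in mature against immature, young against immature and mature against young kidney, for all arrays, with batch as a block, and on each side of 600 alone, filled where the adjusted p was below 0.05. Slc6a13 in mature against immature kidney is filled in all 4 fits, and Abat is filled in none.

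Abat, the GABA transaminase, gave different answers on its probe sets. D87839_at had lowest, median and highest intensities of 711.7, 844.9 and 1011 in immature kidney, 604.2, 784.2 and 1283 in young, 210.6, 879.6 and 1213 in mature, and 538.1, 826.4 and 1247 without a stage word. All 4 descriptions overlapped, and in none of the 6 comparisons did it pass in limma, with differences from -0.18 to -0.02 on the log2 scale and adjusted p from 0.45 to 1. The lowest unadjusted p was 0.289.

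D87839_g_at passed in 2 of the 6 comparisons. Its lowest, median and highest intensities were 959, 1268 and 2255 in immature kidney, 562.8, 1045 and 1812 in young, 846, 1359 and 1995 in mature, and 466.7, 877.8 and 1542 without a stage word. The groups overlapped, and 8 of the 14 arrays without a stage word lay below every immature array. The group without a stage word was lower than immature kidney by a log2 change of -0.50 ± 0.16, at 0.71 of its level (adjusted p = 0.016). Mature kidney exceeded the group without a stage word by 0.62 ± 0.16, or 1.54-fold (adjusted p = 0.049), where it was the 1 member called against 0.412% of all probe sets. Mature minus immature was 0.13 ± 0.16 (adjusted p = 0.58), young minus immature -0.31 ± 0.16 (adjusted p = 0.17), and mature minus young 0.44 ± 0.16 (adjusted p = 0.12).

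Both Abat calls were close to the threshold or moved with batch. With batch as a block the difference of the group without a stage word from immature kidney was -0.18 ± 0.17 (adjusted p = 0.5), and within batch 2 it was -0.24 ± 0.21 (adjusted p = 0.39). For mature against no stage word the block gave 0.56 ± 0.15 (adjusted p = 0.021), while leaving out any 1 of 18 arrays, from both groups, ended the call, with changes of 0.55 to 0.68 over all arrays left out in turn. Without mature replicates 1 and 9 it was 0.63 ± 0.16 (adjusted p = 0.068).

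The probe sets of Abat parted on the arrays of high GAPDH ratio. D87839_at read 210.6 on mature replicate 1 and 264.5 on replicate 9, its lowest values on any array, where D87839_g_at read 1035 and 1726. Over the 55 arrays their log2 values had a Pearson correlation of 0.27 and a Spearman correlation of 0.42, and over the 53 arrays without these 2 the values were 0.53 and 0.48. Without them the mature minus immature difference of D87839_at was 0.08 ± 0.12 (adjusted p = 0.64), of the opposite sign to -0.18 ± 0.17 with all arrays.

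**Figure D3:**
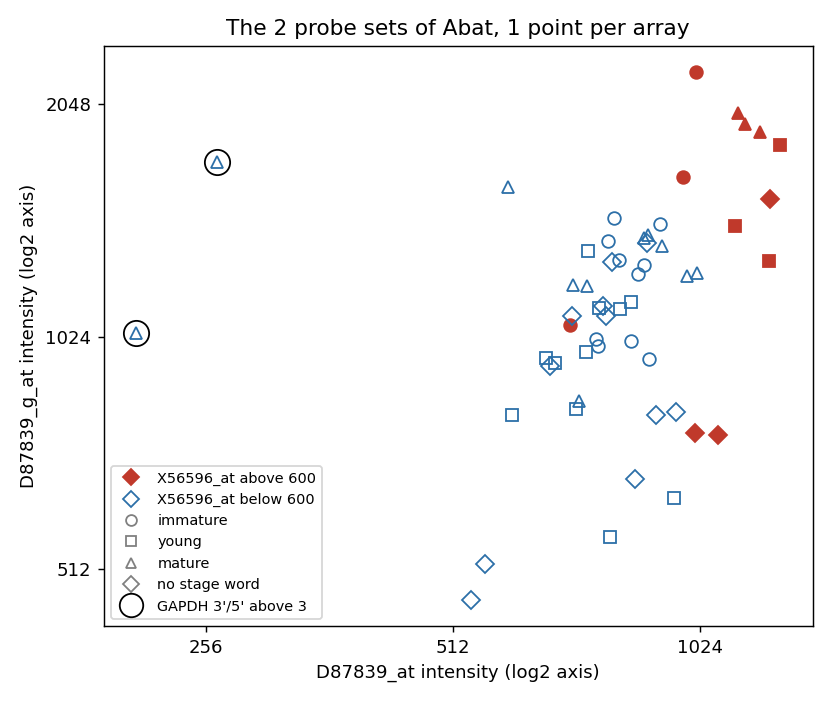
Intensity of D87839_g_at against D87839_at on each array (log2 axes, deposited units), with shapes for the stage description, filled red above and open blue below 600 of X56596_at, and rings on the 2 arrays of high GAPDH ratio. The ringed arrays have the lowest D87839_at intensities, 210.6 and 264.5, with D87839_g_at inside the range of the other mature arrays.

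D87839_at of Abat was the member whose level separated the arrays above 600 of X56596_at from those below. In young kidney it read 1129, 1244 and 1283 above 600 (lowest, median and highest), against 604.2, 749 and 951.1 below, a ratio of medians of 1.66. In mature kidney it read 1141, 1161 and 1213 above, against 210.6, 746.2 and 1014 below, a ratio of 1.56. Both mature arrays of high GAPDH ratio, at 210.6 and 264.5, are on the lower side. They lower its median and so raise this ratio. Without a stage word it read 1010, 1076 and 1247 above, against 538.1, 786.8 and 956.6 below, a ratio of 1.37. The sides did not overlap in these 3 descriptions, where 3.37% of all probe sets in young kidney, 2.87% in mature kidney and 2.79% without a stage word were likewise higher above 600 without overlap. A pattern of this kind in all 3 descriptions together was shown by 0.427% of all probe sets tested, 28 in number. In immature kidney the sides overlapped, at 711.7, 976.7 and 1011 above against 765.9, 831 and 915.3 below, and 1.19% of all probe sets separated there.

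In the same 3 descriptions the separation was also present where batch was held. The share of all probe sets that separated within a batch was not counted. In batch 2, the young arrays below 600 read 722.3 to 818.1 and those without a stage word 559.9 to 883.2, all below the 3 arrays above 600 of their description. All mature arrays above 600 belonged to batch 1, whose 1 mature array below 600 read 598.5. That array, mature replicate 5, had a GAPDH ratio of 1.45 and an actin 3'/5' ratio of 2.75. Mature replicate 12, above 600, had 2.62 and 2.82. In immature kidney of batch 1 the sides overlapped, at 711.7 to 1011 above and 792.2 to 817 below. Arrays above 600 were few and their GAPDH ratios were at most 2.62, and the part that the origin of these arrays plays was not tested.

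D87839_g_at repeated this order in mature kidney, at 1889 to 1995 above 600 against 846 to 1726 below without overlap. In young kidney its median was 1425 above and 961.1 below, with overlap over all arrays and none within batch 2, where it read 1284 to 1812 above and 825.9 to 1114 below. How many of all probe sets separated within batch 2 was not counted. Without a stage word the direction of the medians was opposite, 768.9 above and 938 below, with ranges of 764 to 1542 above and 466.7 to 1353 below that overlapped. Over all arrays, higher levels above 600 without overlap were thus seen on D87839_at alone in young kidney and without a stage word, and on both probe sets in mature kidney.

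The genes whose log2 values followed the members most closely over the 55 arrays are given as a description, since the arrays share batches and scaling. For Slc6a6 they were Rab14, a small GTPase of endosomes (Pearson correlation 0.86), the nuclear RNA-binding protein gene Hnrnpu (0.79), Rbpms (0.77), Setsip (0.74) and Cited2 (0.72). The differences of Rab14 were -0.63 in young against immature and 0.73 in mature against young kidney on the log2 scale. For Slc6a13 they were Cbs, cystathionine beta-synthase (0.71), Ggt1, the brush border gamma-glutamyltransferase (0.70), Ptprn (0.69), Ctss, the lysosomal protease cathepsin S (0.69), and Rpn2 (0.68). Cbs and Ggt1 also belong to the sulfur amino acid genes below, and without the arrays of high GAPDH ratio the value for Ggt1 was 0.81. For D87839_g_at of Abat they were Rpl39 (0.68), Ntf3 (0.64), Cr1l (0.63), Paip1 (0.63) and Cand1 (0.62). Among the members themselves Slc6a6 and Slc6a13 had a correlation of 0.13, and Slc6a6 and D87839_at of -0.42, or -0.24 over 53 arrays without those of high GAPDH ratio.

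The genes around taurine and GABA moved in part. Taurine is made from cysteine by Cdo1 and Csad, and of the 12 genes tested for taurine synthesis and sulfur amino acids 3 were higher and 1 was lower in mature than in immature kidney, where 24.4% of all probe sets were called, with a median log2 difference of 0.10 against 0.04 over all probe sets tested. Ggt1, which splits glutathione outside the cell, was higher by 0.77 ± 0.16 (adjusted p = 0.00027), Fmo1, a monooxygenase that forms taurine from hypotaurine, by 0.51 ± 0.11 (adjusted p = 0.00031), and Cbs, which joins homocysteine to serine, by 0.26 ± 0.08 (adjusted p = 0.012). Suox, the sulfite oxidase, was lower, with a change of -0.27 ± 0.10 (adjusted p = 0.043), and had -0.004 (adjusted p = 0.99) with batch as a block. Csad had 0.36 (adjusted p = 0.086) and Cdo1 -0.21 (adjusted p = 0.18), and neither passed. In young against immature kidney 2 of the 12 were higher, Cbs by 0.27 and Gclm, a subunit of the enzyme that begins glutathione synthesis, by 0.39, and Suox was lower, at -0.30, where 18.7% of all probe sets were called. Cbs passed when batch was a block (0.40, adjusted p = 0.00046), and Gclm (0.24, adjusted p = 0.24) and Suox (-0.10, adjusted p = 0.55) did not.

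Of the 11 genes tested for GABA synthesis and breakdown, 2 were higher and 1 was lower in mature than in immature kidney, against 24.4% called of all probe sets, with a median of 0.03. Maob, a monoamine oxidase on the route from putrescine to GABA, was higher by 0.88 ± 0.13 (adjusted p = 4.9e-07). Akr7a2, which reduces succinic semialdehyde, was higher by 0.44 ± 0.17 (adjusted p = 0.046), and Azin1, which frees ornithine decarboxylase from its inhibitor, was lower, with a change of -0.62 ± 0.17 (adjusted p = 0.0047). Maob passed when batch was a block (0.80, adjusted p = 6.4e-05), and Akr7a2 (0.39, adjusted p = 0.18) and Azin1 (-0.50, adjusted p = 0.063) did not. Aoc1, the diamine oxidase, had 0.31 (adjusted p = 0.081). Aldh5a1, the dehydrogenase that takes the product of Abat to succinate, had -0.02 (adjusted p = 0.93). In young kidney 2 were higher than in immature kidney, Glul, the glutamine synthetase, by 0.68 and Maob by 0.57, against 18.7% called of all probe sets. The block left Maob at 0.43 (adjusted p = 0.046) and Glul at 0.05 (adjusted p = 0.92). Gad1 read 7 to 92.9 and Gad2 4.7 to 214.4 over the 55 arrays and were not tested.

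The next list held genes for the breakdown of pyrimidines and of beta-alanine, which Abat also accepts. Of 6 tested, 1 was higher and 1 lower in mature against immature kidney, beside 24.4% called of all probe sets. Agxt2, a mitochondrial transaminase that also accepts beta-alanine, was higher by 0.28 ± 0.07 (adjusted p = 0.0024). Upb1, which forms beta-alanine from a uracil product, was lower in mature kidney, at -0.32 ± 0.11 (adjusted p = 0.031), and in young kidney, at -0.37 (adjusted p = 0.016), but passed in neither with batch as a block (-0.14, adjusted p = 0.46, and -0.12, adjusted p = 0.56). Dpys had 0.13 (adjusted p = 0.26) and Agxt 0.25 (adjusted p = 0.3) in mature against immature kidney. With batch as a block Dpys had 0.27 and passed (adjusted p = 0.029), and Agxt had -0.12 (adjusted p = 0.72).

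Among the 9 other Slc6 transporters tested, 4 were higher and 0 lower in mature than in immature kidney by limma (also 0 lower at an unadjusted p under 0.05), with a median of 0.22 and 24.4% called of all probe sets. They were Slc6a9, a glycine transporter, at 0.80 ± 0.24 (adjusted p = 0.011), Slc6a18, a neutral amino acid transporter of the proximal tubule brush border, at 0.41 ± 0.10 (adjusted p = 0.0025), Slc6a11, another GABA transporter, at 0.41 ± 0.15 (adjusted p = 0.04), and Slc6a2, the noradrenaline transporter, at 0.35 ± 0.13 (adjusted p = 0.039). With batch as a block Slc6a18 passed (0.33, adjusted p = 0.045) and Slc6a9 (0.63, adjusted p = 0.11), Slc6a11 (0.06, adjusted p = 0.82) and Slc6a2 (0.08, adjusted p = 0.75) did not. In young kidney Slc6a18 alone was higher than in immature kidney, by 0.38 (adjusted p = 0.0078), and with the block it had 0.23 (adjusted p = 0.22).

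Of the 14 GABA and glycine receptor genes tested 1 was higher in mature than in immature kidney, against 24.4% called of all probe sets. It was Gabra6, a GABA-A receptor subunit, higher by 0.51 ± 0.16 (adjusted p = 0.018), with 0.21 (adjusted p = 0.46) when batch was a block. The other members nearest to the threshold were Gabra2 at 0.43 (adjusted p = 0.066), Gabrr1 at 0.34 (adjusted p = 0.15) and Gabrd at -0.41 (adjusted p = 0.16). In young against immature kidney 0 of the 14 passed in limma, and 0 had an unadjusted p under 0.05.

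Renal osmolyte genes, which let medullary cells hold water against salt and urea, were few on the array. Of 6 tested, 1 was lower and 0 higher in mature than in immature kidney by limma (1 higher, Slc14a2, at an unadjusted p under 0.05), and the median was -0.30 against 0.04 over all probe sets, of which 24.4% were called. Aqp2, the vasopressin-regulated water channel of the collecting duct, was lower, with a change of -0.44 ± 0.11 (adjusted p = 0.003), and -0.65 (adjusted p = 8.2e-05) with batch as a block. Aqp2 is also among the 11 distal nephron and collecting duct markers, of which 5 were lower and 1 was higher in mature kidney. Akr1b1, the aldose reductase that makes sorbitol, had -0.37 (adjusted p = 0.27), Hspa1a, a heat shock protein gene, -0.36 (adjusted p = 0.25), and Slc14a2, the urea transporter, 0.29 (adjusted p = 0.099). With batch as a block Akr1b1 had -0.87 and passed (adjusted p = 0.015). Hspa1a (-0.14, adjusted p = 0.76) and Slc14a2 (-0.07, adjusted p = 0.76) did not. In young against immature kidney Akr1b1 was lower, at -0.70 (adjusted p = 0.043), the direction that Slc6a6 had there, and Slc14a2 was higher, at 0.38 (adjusted p = 0.039). In this comparison the batch block gave Akr1b1 -0.90 (adjusted p = 0.015) and Slc14a2 0.10 (adjusted p = 0.68). Slc5a3, the inositol transporter, had 0.15 (adjusted p = 0.68). The motif shown for Slc6a6 was in none of the windows of Slc5a3, Aqp2, Slc14a2, Hspa1a and Sord.

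Over these 6 lists 15 genes were called in mature against immature kidney. With batch as a block all 15 had the same direction and 7 were called, while of all 1599 probe sets called 97.7% had the same direction and 38% were called. In young against immature kidney 9 genes were called, and with the block 9 had the same direction and 3 were called, while of all 1225 probe sets called 98.7% had the same direction and 36.3% were called.

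**Figure D4:**
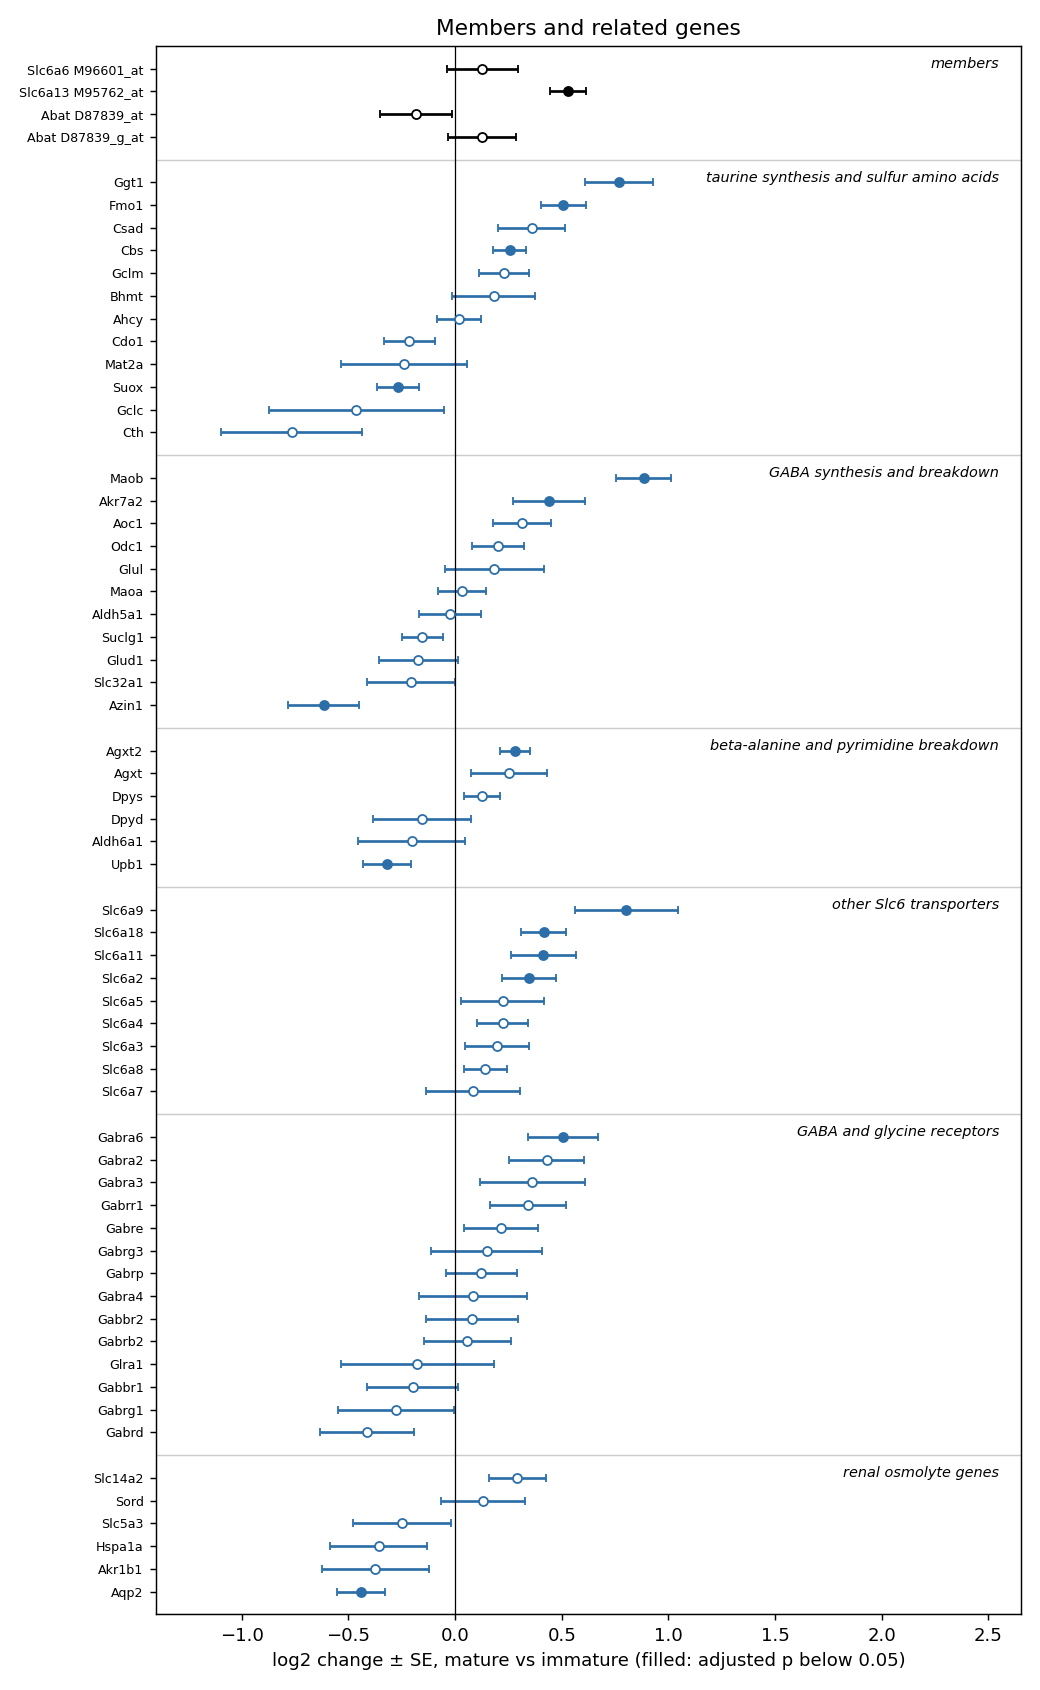
Log2 change ± SE in mature against immature kidney for the 4 member probe sets and the tested genes of the 6 lists, filled where the adjusted p was below 0.05. Slc6a13 at 0.53, Ggt1 at 0.77, Maob at 0.88 and Slc6a9 at 0.80 lie to the right, and Aqp2 at -0.44 and Azin1 at -0.62 to the left.

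Markers of kidney cell types moved with stage too. Of the 13 proximal tubule markers 6 were higher and 2 were lower in mature than in immature kidney, with a median of 0.25, and 7 were higher and 2 lower in young than in immature kidney, with a median of 0.34, beside 24.4% and 18.7% called of all probe sets. When batch was a block, 5 of the 6 higher markers passed in mature kidney and 3 of the 7 in young kidney. The lower ones did not, with Slc5a2 at -0.04 (adjusted p = 0.85) and Dpep1 at -0.04 (adjusted p = 0.95) in mature kidney, and Slc5a2 at -0.14 (adjusted p = 0.52) and Cubn at -0.32 (adjusted p = 0.11) in young kidney. Their summed intensity had a median of 54630 in immature, 73380 in young, 74292 in mature kidney and 73836 without a stage word. The medians of Slc6a13 in the same order were 349.7, 396.1, 524.8 and 564.9. The median of this sum was 59213 above 600 of X56596_at against 75107 below in young kidney, 58782 against 77239 in mature kidney and 70770 against 76123 without a stage word, but 56030 against 54417 in immature kidney, and the ranges overlapped in all 4. Of the 11 distal nephron and collecting duct markers, 5 were lower and 1 was higher in mature than in immature kidney (median -0.44). With batch as a block the lower ones passed and the higher one did not (0.24, adjusted p = 0.29). Their summed intensity had a median of 15795 in immature, 14219 in young, 12437 in mature kidney and 14294 without a stage word. Without a stage word it read 9482.5 to 11981 above 600 and 12776 to 16521 below. Other marker sums also separated. In mature kidney the thick ascending limb sum read 11408 to 12435 above and 13763 to 30733 below. The immune sum there read 8518 to 10266 above and 11186 to 24748.5 below. The endothelial sum read 994.9 to 1108 above and 1115 to 1949 below in young kidney. Without a stage word the endothelial sum read 1053 to 1297.5 above and 1309 to 2280 below. How often sums of other probe sets separate was not counted. The 5 fibroblast matrix markers were all lower in mature kidney, with a median of -1.63. The part of these markers in the results above was not tested.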

How the data were processed

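The deposited values were used as intensities on a linear scale for 8799 probe sets on 55 arrays. How the authors summarised probes and scaled arrays, and their genome build, is not given in the sources used here. Every array had a 2% trimmed mean of 499.7 to 500.0, so the deposited scaling was kept. The platform annotation gave 7018 probe sets 1 symbol and 308 several, left 1473 without, and 6994 symbols were updated through the GRCr8 gene table of RefSeq.

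After removing 59 control probe sets, log2(intensity + 15.82), an offset of 0.1 of the median, was taken. Probe sets whose mean lay below the 25th percentile were left out, which kept 6555. One linear model with 4 groups was fitted in limma 3.58.1 under R 4.3.3 (lmFit, eBayes), with 6 contrasts and an F test, 2-sided, Benjamini-Hochberg adjusted over the 6555, threshold 0.05. Fits on part of the arrays used the same 6555. Folds are on the offset scale and understate low genes. Replicates are numbered in accession order. Batches came from Ward clustering of 42 control probe sets, cut at a set number of 3, and were chosen with the data seen. Alternatives were scaling, offset, filter, array weights, variance trend, batch and side as blocks or alone, and leaving out arrays. The fits were tested on simulated data. Figures were drawn with matplotlib 3.10.9.

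The genes, lists, split and tests were chosen with earlier results of these data known. Named were all probe sets of the 3 genes, the 5 most correlated genes for each, and from each list up to 4 members of smallest p in mature against immature kidney. Cdo1, Csad, Aldh5a1, Slc5a3, the members that passed in young kidney and 3 tubule markers were named for their role or call after their values were seen.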

Additional observations from a re-analysis of the deposited data

How the results depend on the processing

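No paired analysis was possible because the labels give no replicate numbers that groups share, so no replicate block was fitted. Slc6a13 in the group without a stage word over immature kidney passed in all 15 alternatives (0.59 to 0.92 on the log2 scale), and in mature over immature kidney in 14 of 15 (0.46 to 0.70), the exception being batch 1 alone (0.53). Combining batch and side as blocks, and leaving out the high GAPDH ratios among arrays below 600, were chosen after seeing the data. Mature over young Slc6a13 lost its call with batch as a block (0.28), below 600 (0.27, or 0.25 without high GAPDH ratios) and in batch 3 (0.20). For the group without a stage word over young kidney Slc6a13 lost it below 600 (0.43) and in batch 3 (0.34). Young minus immature Slc6a13 passed with array weights (0.23) and with batch as a block (0.27), and was -0.034 above 600.

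Slc6a6 in mature over young kidney lost its call with batch as a block (0.48), with batch and side (0.48), above 600 (1.26), below 600 (0.61, or 0.47 without high GAPDH ratios) and in batch 3 (0.37). Young minus immature Slc6a6 lost it below 600 (-0.43) and with both blocks (-0.52). Slc6a6 in the group without a stage word against immature kidney passed without the high GAPDH ratios (-0.41) and in batch 2 (-0.49). Leaving out 1 array at a time gave -0.47 to -0.32, with calls without immature replicate 2 (adjusted p = 0.029) or replicate 3 without a stage word (adjusted p = 0.038). Mature minus immature Slc6a6, not called, changed sign with batch as a block (-0.084), with both blocks (-0.047) and above 600 (-0.045). The F of Slc6a6 was 4.35 with both blocks and 3.47 below 600 without high GAPDH ratios, neither passing.

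D87839_g_at of Abat in the group without a stage word against immature kidney lost its call with batch as a block (-0.18), with both blocks (-0.31), above 600 (-0.70) and in batch 2 (-0.24). In mature over no stage word it lost it with median scaling (0.63), no filter (0.62), array weights (0.52), without high GAPDH ratios (0.63), above 600 (0.99), below 600 (0.52, or 0.51 without high GAPDH ratios) and in batch 3 (0.52). Leaving out 1 array at a time gave 0.55 to 0.68. The 18 arrays that each ended this call were no-stage-word replicates 1 to 4, 6, 7 and 12 to 14 and mature replicates 2, 4, 5, 7, 8, 9, 11, 12 and 14. Its F above 600 was 3.69, not passing, and young minus immature changed sign with batch as a block (0.0062) and in batch 2 (0.13), uncalled.

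D87839_at, never called, changed sign often. Mature minus immature was 0.047 with array weights, 0.083 without high GAPDH ratios, 0.083 with batch as a block, 0.39 above 600 and 0.22 in batch 1. Young minus immature was 0.003 with quantile normalization, 0.23 with batch as a block, 0.45 above 600, 0.19 in batch 2, 0.0047 with both blocks and -0.064 to 0.019 with 1 array left out. Mature minus young was 0.059 with array weights, 0.10 without high GAPDH ratios and 0.12 below 600 without them. The group without a stage word minus immature was 0.21 with batch as a block, 0.31 above 600, 0.087 in batch 2 and -0.087 to 0.0049 with 1 array left out. Minus young it was 0.024 with median scaling, 0.006 below 600 with or without high GAPDH ratios, 0.04 in batch 3 and -0.07 to 0.023 with 1 array left out. Mature minus no stage word was 0.12 with array weights, 0.12 without high GAPDH ratios, 0.081 above 600 and 0.11 below 600 without them. Above minus below 600 in immature kidney, a difference of medians with no test, kept its sign. It was 0.23 with the deposited scaling and 0.32 with median scaling. The causes were not tested.

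Counts of called probe sets moved by over 1.5 times in some settings. Mature against immature had 1599, against 3691 with array weights, 829 with batch as a block, 612 with both blocks, 374 above 600 and 47 in batch 1. Young against immature had 1225, against 2902, 583 and 317 in the first 3 of these, 1921 in batch 2 and 1846 below 600 without high GAPDH ratios. Mature against young had 118, against 260 with array weights, 482 above and 48 below 600, 29 in batch 3, 59 without high GAPDH ratios and 45 below 600 without them. No stage word against immature had 1773, against 3831 with array weights, 941 with both blocks, 834 above 600 and 2848 in batch 2. Against young it had 15, against 3 with median scaling, 10 with quantile normalization, 372 with array weights, 33 without high GAPDH ratios, 66 with batch as a block, 74 with both blocks, 79 above and 2 below 600, 7 there without high GAPDH ratios, and 1778 in batch 2. In batch 3 it had 0 by limma, with 187 at an unadjusted p under 0.05. Mature against no stage word had 27, against 11 with median scaling, 14 without a filter, 73 with array weights, 345 with batch as a block, 329 with both blocks, 48 with side as a block, 146 above and 16 below 600, 14 in batch 3 and 9 below 600 without high GAPDH ratios. Subsets hold fewer arrays. Above 600, the immature and mature arrays were of another batch than the young ones and those without a stage word.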

Other observations

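Among the markers of other tissues, Nefm, a neurofilament subunit of neurons, was higher in mature than in immature kidney by 2.25 ± 0.17 on the log2 scale (limma, adjusted p = 1.2e-15), while Snap25, a synaptic protein gene, had 0.19 (adjusted p = 0.49), Syp, synaptophysin, 0.02 (adjusted p = 0.95) and Nefl, another neurofilament subunit, 0.37 (adjusted p = 0.2). These genes were named after their values were seen.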
